A study of Mus musculus with 9 samples.

Results

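The immune checkpoint and T-cell exhaustion genes examined here were Pdcd1, Cd274, Pdcd1lg2, Ctla4, Lag3, Havcr2, Tigit, Tox, Cd244a and Entpd1. Their probes were found through the transcript accession printed for each probe of a mouse expression array, which gave 14 probes of 10 genes among 56601 tested probes and 22909 named genes. Lag3, Tox, Cd244a and Entpd1 each had 2 probes. Each gene is described by the probe with the higher mean signal, and the second probe is given beside it.

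The arrays came from a mouse model of lung transplantation in which the left lung of a male C57BL/10 donor was placed in a male C57BL/6 recipient, 8 to 12 weeks old, across minor histocompatibility antigens. Grafts harvested at day 21 were sorted by histology into OB, which stands for obliterative bronchiolitis, the fibrous closure of small airways, and non-OB. Sham lungs came from mice that had a thoracotomy without a graft and were harvested on the same day, and their age is not given. The labels give the C57BL/10 donor and C57BL/6 recipient for the sham lungs too, whereas the study describes sham lungs of both strains, with sham 1 named as C57BL/10. Each group had 3 lungs on 1 array each, and the RNA was that of the whole lung, so fewer cells of a type and less RNA per cell cannot be told apart. The p-values measure the spread between these 3 lungs a group. As a check of the tissue, all 11 measured lung epithelial markers, the surfactant gene Sftpc among them, were well above background on every array.

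Checkpoint receptors are inhibitory receptors that T cells put on their surface after activation and keep there under lasting antigen exposure. PD-1, encoded by Pdcd1, is bound by PD-L1 and PD-L2, which antigen-presenting cells and inflamed tissue carry. CTLA-4 competes with the costimulatory receptor CD28 for CD80 and CD86, while LAG-3, TIM-3 (Havcr2), TIGIT and 2B4 (Cd244a) each recognise their own ligands. TOX is a nuclear factor that maintains the exhausted state, in which T cells under long stimulation lose function, and CD39 (Entpd1) is an ectoenzyme that breaks down extracellular ATP on the way to adenosine. In transplantation these genes are studied both as marks of activated graft-infiltrating T cells and as brakes on rejection.

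Of the 10 genes, 8 were higher in OB grafts than in sham lungs, namely Pdcd1, Tigit, Ctla4, Lag3, Tox, Pdcd1lg2, Havcr2 and Cd274. The log2 change ran from 1.78 for Cd274 to 6.01 for Pdcd1. A gene was called when the adjusted p from limma, a linear model fitted to all 9 arrays and corrected over all tested probes, was under 0.05 and the change at least 2-fold. The same rule called 3.82% of all named genes higher and 3.73% lower in OB grafts. The median change of the 10 genes was 2.90 on the log2 scale, beside -0.05 over all named genes. The same 8 genes were called higher in non-OB grafts, where 2.52% of all named genes were higher and 1.13% lower, and the median changes there were 2.28 for the 10 genes and -0.01 for all. Cd244a and Entpd1 were not called in either comparison. Between OB and non-OB grafts none of the 10 genes was called, and of all named genes 0% were.

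**Figure D1:**
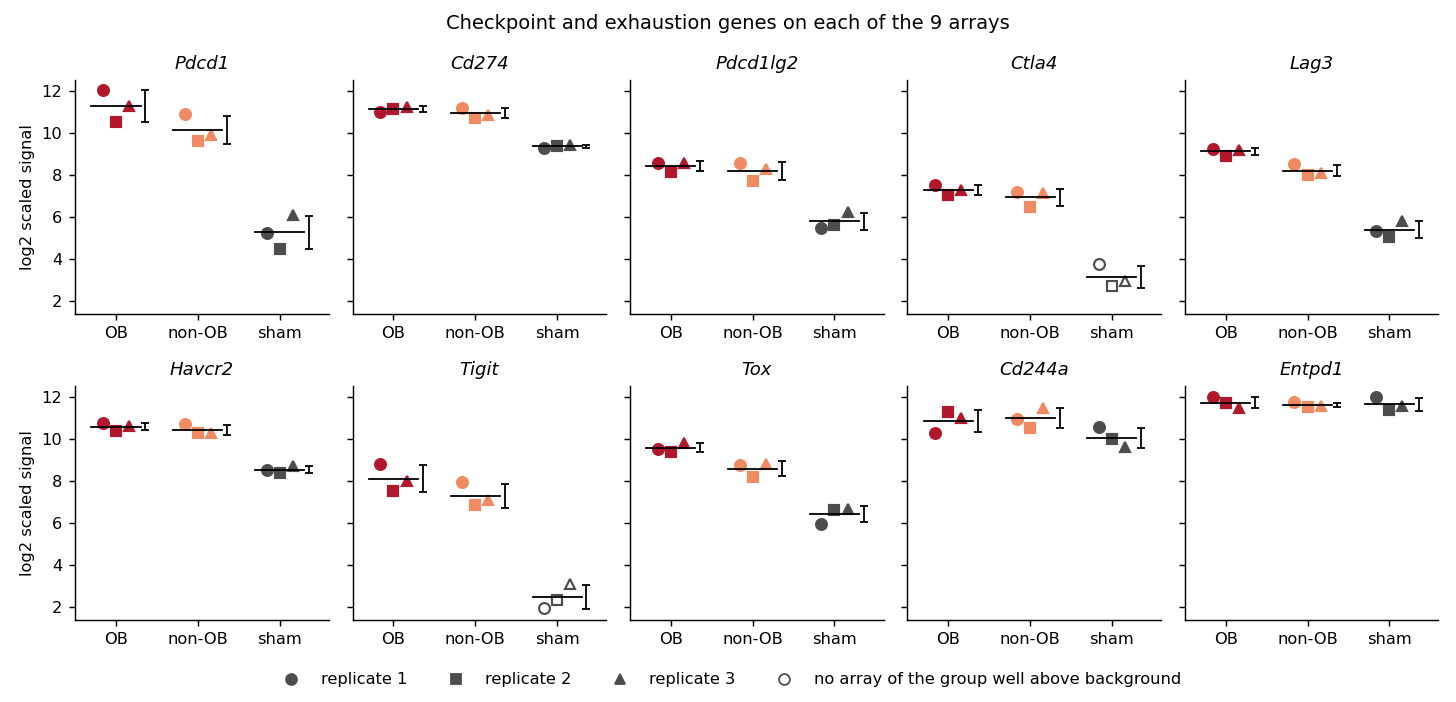
Log2 scaled signal of the 10 genes on each array, 1 panel per gene, with OB, non-OB and sham lungs along the x axis. Symbols stand for replicates 1 to 3, horizontal lines for group means and vertical bars for the mean ± SD of 3 arrays. Open symbols mark groups in which no array was well above background. All grafts lie above all sham lungs for 8 genes, and the groups overlap for Cd244a and Entpd1.

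Signals are given below as log2 of the background-subtracted intensity after scaling each array to the same trimmed mean, and they are not compared between probes. Pdcd1, the receptor PD-1, read 12.02, 10.50 and 11.26 in OB grafts, 10.91, 9.62 and 9.88 in non-OB grafts and 5.21, 4.47 and 6.07 in sham lungs. Every graft lay above every sham lung, and the OB and non-OB values overlapped. Pdcd1 rose by a log2 change of 6.01 (SE 0.55, adjusted p = 0.0020 from limma) in OB grafts, a 64.4-fold difference with a 95% interval from 26.9 to 154. In non-OB grafts it rose by 4.89 (SE 0.55, adjusted p = 0.0066), or 29.6-fold. Another processing was normexp, a background correction that adds an offset of 50 to every signal, followed by quantile normalization. With it the rise of Pdcd1 was 15.4-fold in OB and 7.28-fold in non-OB grafts. Both lie under the 95% intervals of the scaled signal, which ran from 12.4 to 70.8 in non-OB grafts.

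The PD-1 ligands rose less. Cd274, which encodes PD-L1, read 11.00, 11.15 and 11.25 in OB grafts, 11.19, 10.72 and 10.86 in non-OB grafts and 9.26, 9.36 and 9.44 in sham lungs. It had the smallest SD of the 10 genes in sham lungs, 0.09 (n = 3), and rose 3.44-fold in OB grafts (log2 change 1.78, SE 0.18, adjusted p = 0.0029 from limma) and 2.98-fold in non-OB grafts (log2 change 1.57, adjusted p = 0.0073). Pdcd1lg2, which encodes PD-L2, read 8.54, 8.13 and 8.55 in OB grafts, 8.58, 7.71 and 8.27 in non-OB grafts and 5.48, 5.63 and 6.24 in sham lungs. The highest of its 6 graft values was that of non-OB 1. The log2 change of Pdcd1lg2 was 2.63 (SE 0.30, adjusted p = 0.0038) in OB grafts and 2.41 (adjusted p = 0.0083) in non-OB grafts. These are rises of 6.17-fold and 5.30-fold, whereas normexp gave 2.70-fold and 2.33-fold. Both normexp values lie under the limma intervals of the scaled signal, which began at 3.84 and 3.30.

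Cd274 and Pdcd1lg2 are neighbouring genes on mouse chromosome 19. RefSeq promoter windows, 250 bases before to 50 after a start site, were at hand for 8 of the 10 genes. The windows of the PD-1 receptor gene and its 2 ligand genes are shown, on GRCm38.p6. That of Pdcd1 lies at chr1:94052504-94052803 on the minus strand. Those of Cd274 at chr19:29367188-29367487 and Pdcd1lg2 at chr19:29410669-29410968 lie on the plus strand. Each is written 5′ to 3′ along its gene, with capitals for the letters AANNGAAA or their reverse complement, the core that interferon regulatory factors bind.
Pdcd1: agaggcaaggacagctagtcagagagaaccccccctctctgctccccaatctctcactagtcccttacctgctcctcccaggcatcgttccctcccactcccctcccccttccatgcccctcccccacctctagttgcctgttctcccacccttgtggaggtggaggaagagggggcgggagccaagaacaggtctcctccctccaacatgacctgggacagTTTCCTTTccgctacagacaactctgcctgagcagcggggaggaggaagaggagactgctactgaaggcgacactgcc
Cd274: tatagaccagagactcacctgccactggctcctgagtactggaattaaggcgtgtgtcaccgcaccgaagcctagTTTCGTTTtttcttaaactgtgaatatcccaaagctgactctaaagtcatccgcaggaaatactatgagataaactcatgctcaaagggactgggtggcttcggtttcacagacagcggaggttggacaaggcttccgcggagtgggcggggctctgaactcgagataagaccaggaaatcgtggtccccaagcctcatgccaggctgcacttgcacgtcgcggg
Pdcd1lg2: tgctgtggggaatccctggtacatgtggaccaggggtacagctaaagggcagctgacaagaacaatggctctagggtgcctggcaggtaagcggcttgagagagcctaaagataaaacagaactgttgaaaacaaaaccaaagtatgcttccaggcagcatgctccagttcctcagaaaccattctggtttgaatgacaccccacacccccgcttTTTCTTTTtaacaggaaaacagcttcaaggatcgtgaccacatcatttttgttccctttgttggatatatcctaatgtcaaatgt
Counted from the start site, the core begins at -28 in Pdcd1, at -175 in Cd274 and at -35 in Pdcd1lg2. It is a short word, found on either strand in 23.9% of all 32851 promoter windows, and among the 9 windows of these genes it was also in 1 of the 2 windows of Entpd1, a gene that was not called. The windows of Ctla4, Havcr2 and Tigit, which were called higher as well, did not hold it, nor did that of Cd244a. The other words searched were TTCNNNGAA, in none of the 9 windows and 8.30% of all windows, TGANTCA, in Cd244a and Havcr2 and 7.81% of all, and TATAAA, in Ctla4 and 13.6% of all.

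Among the other inhibitory receptors, Ctla4 and Tigit did not stand well above background in any sham lung, which leaves only an approximate lower limit for their rise. Ctla4 read 7.53, 7.06 and 7.25 in OB grafts, 7.18, 6.44 and 7.14 in non-OB grafts and 3.73, 2.72 and 2.96 in sham lungs. In OB grafts it was higher by at least 9.5-fold (adjusted p = 0.0013 from limma) and at least 7.42-fold higher in non-OB grafts (adjusted p = 0.0030). A group is said to be at background where none of its arrays was well above it. The limits set the mean of a graft group against the lowest signal that counted as above background on each sham array, and they hold for the scaled signal alone. The flag is given spot by spot, and some values above that lowest signal missed it. These limits and the later ones given as at least are therefore approximate and no strict bounds. With normexp the fitted change of Ctla4 was 1.11 in OB grafts, or 2.15-fold, and 0.94 in non-OB grafts, or 1.92-fold, which is under the 2-fold rule and ended the call there.

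Tigit, a receptor shared by T cells and natural killer cells, read 8.81, 7.52 and 8.01 in OB grafts, 7.94, 6.84 and 7.07 in non-OB grafts and 1.96, 2.33 and 3.08 in sham lungs. All 6 graft values lay far above the sham values. Tigit was at least 16.9-fold higher in OB grafts (adjusted p = 0.0014 from limma) and at least 9.54-fold higher in non-OB grafts (adjusted p = 0.0035), again on the scaled signal. With normexp its fitted change was 1.92 in OB grafts, or 3.77-fold, and 1.35 in non-OB grafts, or 2.54-fold, where it was no longer called (adjusted p = 0.0719 from limma).

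Lag3, a CD4-like receptor that binds MHC class II, read 9.24, 8.90 and 9.20 in OB grafts, 8.52, 8.01 and 8.09 in non-OB grafts and 5.33, 5.01 and 5.81 in sham lungs. The 3 groups did not overlap, with OB highest and sham lowest. Lag3 rose by a log2 change of 3.73 (SE 0.25, adjusted p = 0.0010 from limma), or 13.2-fold, in OB grafts and by 2.82 (adjusted p = 0.0032), or 7.05-fold, in non-OB grafts. The rise of Lag3 depended on the processing, and with normexp it was 4.26-fold in OB and 2.56-fold in non-OB grafts. Both lie under the limma intervals of the scaled signal, which began at 8.82 and 4.70. The second Lag3 probe read 7.20, 6.78 and 7.32 in OB grafts and 6.49, 5.69 and 5.63 in non-OB grafts, and in sham lungs it was at background. By that probe Lag3 was at least 8.40-fold higher in OB grafts and at least 3.75-fold higher in non-OB grafts.

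Havcr2, which encodes TIM-3 and is expressed by macrophages and dendritic cells as well as T cells, read 10.78, 10.40 and 10.60 in OB grafts, 10.71, 10.28 and 10.28 in non-OB grafts and 8.51, 8.40 and 8.72 in sham lungs. The grafts spanned only 0.50 on the log2 scale, the narrowest span of the 10 genes. Havcr2 rose 4.14-fold in OB grafts (log2 change 2.05, SE 0.20, adjusted p = 0.0025 from limma) and 3.68-fold in non-OB grafts (log2 change 1.88, adjusted p = 0.0057).

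Tox, the exhaustion factor, read 9.54, 9.39 and 9.83 in OB grafts, 8.75, 8.18 and 8.82 in non-OB grafts and 5.96, 6.62 and 6.68 in sham lungs. As for Lag3, the 3 groups did not overlap. The log2 change of Tox was 3.17 (SE 0.27, adjusted p = 0.0016 from limma), or 8.97-fold, in OB grafts and 2.16 (adjusted p = 0.0092), or 4.48-fold, in non-OB grafts. Tox rose less with normexp, 4.60-fold in OB and 2.54-fold in non-OB grafts. Both lie under the limma intervals of the scaled signal, which began at 5.80 and 2.89. The second Tox probe was dim, well above background on 1 of the 3 sham arrays and 2 of the 3 non-OB arrays. It rose by 3.25 in OB grafts (adjusted p = 0.0224) and had a log2 change of 2.08 in non-OB grafts that missed the threshold (adjusted p = 0.137).

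Cd244a, which encodes the SLAM-family receptor 2B4 of natural killer cells and CD8 T cells, behaved unlike these genes. It read 10.30, 11.28 and 10.99 in OB grafts, 10.94, 10.53 and 11.50 in non-OB grafts and 10.56, 10.00 and 9.62 in sham lungs, and the groups overlapped. Its log2 change was 0.80 (95% interval -0.05 to 1.66, adjusted p = 0.286 from limma) in OB grafts and 0.93 (0.08 to 1.79, adjusted p = 0.261) in non-OB grafts. The second Cd244a probe gave 1.49 (adjusted p = 0.128) and 1.91 (adjusted p = 0.0905), with all grafts above all sham lungs. The highest value of each graft group came from slide 2, which held OB 2 and non-OB 3. Within slide 1, the one slide with all 3 groups, the main probe differed from sham by 0.02 for the 1 OB array and by 0.66 for the 1 non-OB array. On that slide the second probe read 6.58 in OB and 7.43 in non-OB against 5.99 and 5.71 in sham. With the slide as a fixed block the change of the main probe was 0.28 in OB and 0.41 in non-OB grafts. With the slide as a random block it was 0.60 and 0.73, and Cd244a was not called in either fit. Whether the slide caused these differences was not tested.

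Entpd1, which encodes CD39, read 12.01, 11.70 and 11.48 in OB grafts, 11.75, 11.53 and 11.60 in non-OB grafts and 11.98, 11.37 and 11.59 in sham lungs. The 3 groups overlapped, with the non-OB values inside the range of the others. The log2 change in OB grafts was 0.08 with a 95% interval from -0.44 to 0.59 (adjusted p = 0.861 from limma), so a 1.51-fold rise was at the upper end of what this probe allows. In non-OB grafts it was -0.02 (-0.54 to 0.49, adjusted p = 0.962). The second probe gave 0.23 in OB grafts, with an interval from -0.33 to 0.80 that reaches 1.74-fold, and 0.07 in non-OB grafts.

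The OB and sham values did not overlap, with OB on top, for 8 of the 10 genes, beside 19.9% of all named genes, and the same held for non-OB and sham values of the same 8 genes, beside 15.5%. Each of the 10 genes passed the background flag on every array of 1 group or more, and 8 of them on all 9 arrays. The arrays were spread over 4 slides. Sham 1 and sham 2 shared slide 1 with OB 1 and non-OB 1, and sham 3 was on slide 4 without a graft. The grafts on slide 2 (OB 2, non-OB 3) and slide 3 (OB 3, non-OB 2) had no sham lung beside them. Graft against sham is thus partly mixed with slide, and a fixed slide block compares them through slide 1 only. When the slide entered the fit as a fixed block, Tigit alone of the 8 genes stayed called in OB grafts (adjusted p = 0.0433) and none in non-OB grafts. That fit called 3 named genes on the whole array in OB grafts and 0 in non-OB grafts, and the changes of the 8 genes in it, 1.89 for Cd274 to 7.19 for Pdcd1 in OB grafts, were larger than those above. With the slide as a random block all 8 stayed called in both comparisons. With sham 1, the lung named as C57BL/10, as the only sham lung, Pdcd1, Tigit, Ctla4, Lag3 and Tox stayed called in OB grafts and none in non-OB grafts. That fit has no spread among sham lungs and called 131 of 22909 named genes higher in OB grafts and 0 in non-OB grafts. Without sham 2, Pdcd1lg2 was no longer called in non-OB grafts.

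**Figure D2:**
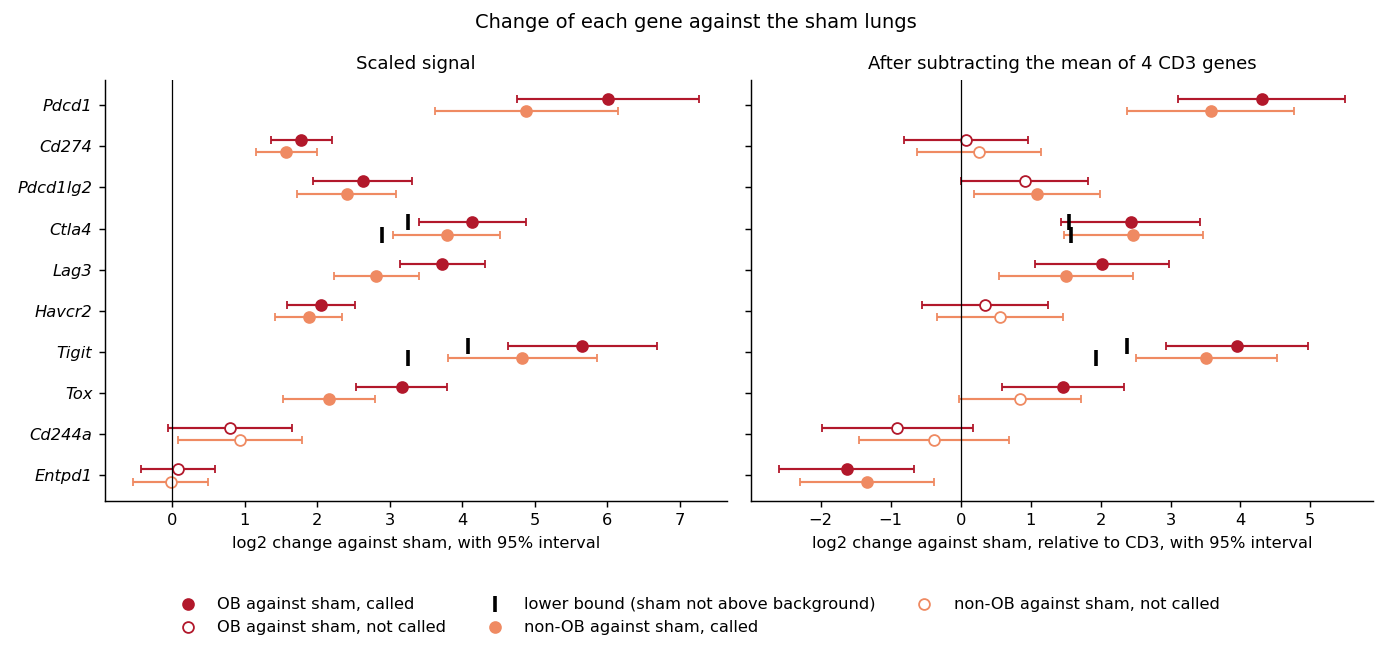
Log2 change of each gene against sham with its 95% interval from limma, on the scaled signal (left) and after subtracting the mean log2 signal of 4 CD3 genes from each array (right). Filled circles were called, open circles were not, and black ticks are the approximate lower limits for Ctla4 and Tigit, whose sham arrays were not above background. On the left 8 genes are called in both comparisons, and on the right Cd274 and Havcr2 lie near 0 and Entpd1 lies below it.

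T-cell markers were higher in the grafts too. Of 16 T-cell marker genes 14 rose in OB grafts (median log2 change 2.06) and 9 in non-OB grafts (median 1.66). The mean log2 signal of the 16 genes was 11.69 to 11.91 on the OB arrays, 10.93 to 11.55 on the non-OB arrays and 9.40 to 10.03 on the sham arrays. To see which genes changed by more than the T-cell receptor complex did, the mean log2 signal of Cd3d, Cd3e, Cd3g and Cd247 was subtracted on each array. That mean was 12.60 ± 0.20 in OB, 12.21 ± 0.44 in non-OB and 10.90 ± 0.35 in sham lungs (SD, n = 3). Cd3d, Cd3e and Cd3g rose by 2.17, 2.06 and 2.71 in OB grafts, whereas Cd247 had a change of -0.11 (adjusted p = 0.927 from limma). The subtraction removed 1.71 from every change in OB grafts and 1.31 in non-OB grafts.

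After the subtraction 5 of the 10 genes were called higher in OB grafts, Pdcd1 at 4.30 (adjusted p = 5.4e-04 from limma), Tigit at 3.95, Ctla4 at 2.43, Lag3 at 2.02 and Tox at 1.46 (adjusted p = 0.0072). For Tigit and Ctla4 the lower limits, set as above on the scaled signal, were 2.38 and 1.54. With normexp neither was called, with Tigit at 0.20 (adjusted p = 0.569) and Ctla4 turned to -0.60 (adjusted p = 0.092), and Lag3 at 0.38 and Tox at 0.49 were not called either, which left Pdcd1 at 2.23. The rule called 0.668% of all named genes higher on this scale and 80.6% lower, since the subtraction lowers nearly every gene in the grafts, and the adjusted p then lies close to the unadjusted one. Pdcd1lg2 had a change of 0.92 (adjusted p = 0.062), and Havcr2 at 0.34 and Cd274 at 0.08 were not called. Cd244a stood at -0.90 (adjusted p = 0.113), but was called lower with the slide as a fixed block (-1.63, adjusted p = 0.0196) or a random block (-1.13, adjusted p = 0.0370) and with Cd3e alone as the reference (-1.26, adjusted p = 0.0196). Entpd1 was called lower at -1.63 (adjusted p = 0.0069).

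In non-OB grafts the genes called higher after the subtraction were Pdcd1 at 3.57, Tigit at 3.51 (lower limit 1.94), Ctla4 at 2.47 (lower limit 1.58), Lag3 at 1.5 and Pdcd1lg2 at 1.09, the last at the edge of the threshold (adjusted p = 0.049 from limma). The rule called 0.624% of all named genes higher and 55.6% lower there. Tox had a change of 0.85 (adjusted p = 0.0995), and Entpd1 was called lower at -1.34 (adjusted p = 0.0292). The Entpd1 call was lost with the slide as a fixed block (adjusted p = 0.0669), with the replicate number as a block (0.0567), with sham 1 as the only sham lung (0.0839), with the methods' test after adjustment (0.0888) and without non-OB 1, non-OB 3, sham 1 or sham 3 (0.0864 to 0.131). Leaving out any of 5 single arrays, non-OB 1, non-OB 3, sham 1, sham 2 or sham 3, left 3 of the 5 genes, Pdcd1, Tigit and Ctla4. On the whole array these 5 fits called 43 to 95 of 22909 named genes higher, against 143 with all arrays. The 4 of these fits that lost the Entpd1 call had 1015 to 4625 named genes lower, against 12743 with all arrays. With normexp Pdcd1 alone was called higher, at 1.56, with Tigit at 0.047, Lag3 at 0.054, Pdcd1lg2 at -0.082 and Ctla4 at -0.36.

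Among the grafts, the lowest and the highest lung of several genes were those of the CD3 mean. Non-OB 2 was the lowest of the 6 grafts for 7 of the 10 genes and also for the CD3 mean, at 11.73, and OB 1 was the highest for 6 genes and for the CD3 mean, at 12.80. The share of all named genes with this order was not counted, so the order cannot be read as particular to these genes. Pdcd1 spanned 2.41 on the log2 scale over the grafts and Tigit 1.98, against 0.53 for Cd274. After the subtraction the SD over the OB grafts was smaller for 7 of the 10 genes, beside 30.4% of all named genes, and over the non-OB grafts for 7, beside 16.8%. For Ctla4 the SD fell from 0.24 to 0.04 in OB and from 0.41 to 0.09 in non-OB grafts, and for Pdcd1lg2 it fell from 0.44 to 0.05 in non-OB grafts. It grew for Cd274 from 0.13 to 0.29 and for Cd244a from 0.50 to 0.70 in OB grafts, and for Entpd1 from 0.11 to 0.34 and for Havcr2 from 0.25 to 0.32 in non-OB grafts. Over the sham lungs the SD became smaller for 1 gene, Tox, beside 15.1% of all named genes. These are values of 3 lungs a group, and no test was made of them.

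OB and non-OB grafts were set against each other to see which genes go with airway closure beyond grafting. None of the 10 genes passed the adjusted threshold, all with an adjusted p of 1.00 in limma. At an unadjusted p under 0.05 from limma, Lag3 and Tox were higher in OB grafts, beside 0.694% of all named genes. Lag3 was higher by 0.91 (95% interval 0.32 to 1.5, unadjusted p = 0.0072 from limma), and its second probe by 1.16 (0.35 to 1.97, unadjusted p = 0.0105). Tox was higher by 1.00 (0.37 to 1.63, unadjusted p = 0.0062), and its second probe by 1.17 (-0.24 to 2.58, unadjusted p = 0.0919).

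All OB arrays lay above all non-OB arrays for these 2 genes and for all 4 of their probes, beside 1.43% of all named genes. The gap between the lowest OB and the highest non-OB value was 0.38 for Lag3 and 0.57 for Tox on the log2 scale, and 0.30 and 0.62 on their second probes. A further 2 probes, named Tox only in the study's table of transcripts raised in OB lungs and so chosen on these arrays, differed by 0.89 and 0.50. On the first the OB and non-OB values did not overlap (unadjusted p = 0.0204 from limma). On the second they overlapped (unadjusted p = 0.463 from limma), and that probe was dim, well above background on 2 OB and 2 non-OB arrays. For Pdcd1 the difference was 1.12 with an interval from -0.14 to 2.38, and for Tigit 0.83 (-0.20 to 1.86). The intervals of Cd274 (-0.22 to 0.63), Havcr2 (-0.30 to 0.63) and the main Entpd1 probe (-0.41 to 0.62) leave room for at most a 1.55-fold rise. That of the second Entpd1 probe (-0.41 to 0.72) reaches 1.65-fold.

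The CD8 genes moved the same way as Lag3 and Tox, with Cd8a at 1.30 and Cd8b1 at 1.16 higher in OB than in non-OB grafts (unadjusted p = 0.0112 and 0.0090 from limma, neither called after adjustment). All 16 T-cell markers had a positive difference, with a median of 0.39, and the CD3 mean differed by 0.39. After the CD3 subtraction Lag3 differed by 0.52 (unadjusted p = 0.266 from limma) and Tox by 0.61 (unadjusted p = 0.153), and the OB and non-OB values of both still did not overlap. The part of T-cell number in these differences was not tested.

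**Figure D3:**
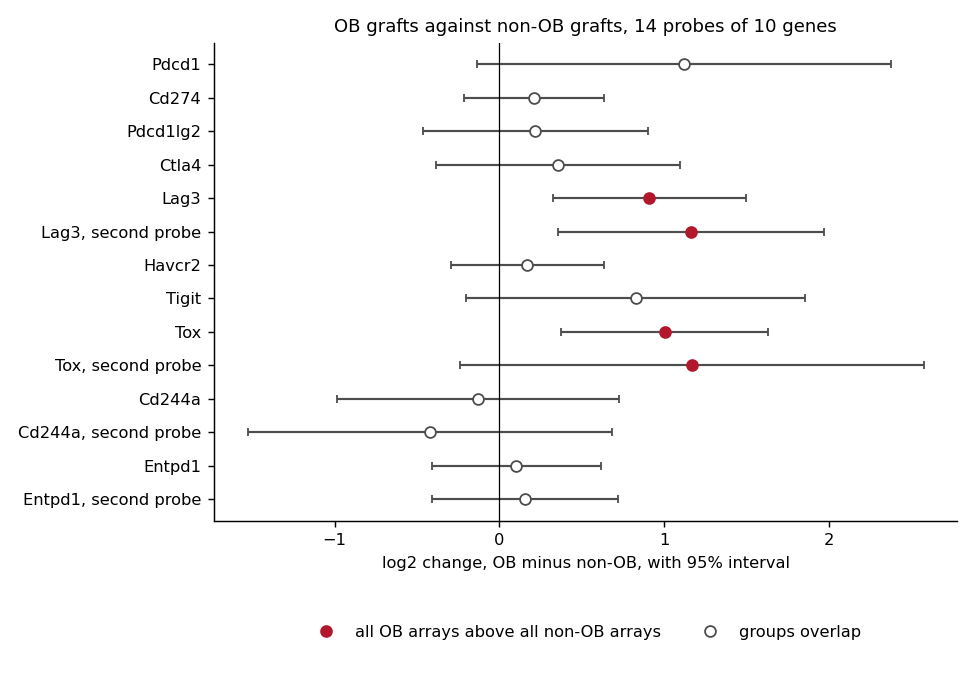
Log2 difference between OB and non-OB grafts for all 14 probes with 95% intervals from limma. Red points mark the 4 probes, those of Lag3 and Tox, on which all OB arrays lie above all non-OB arrays. No probe passed the adjusted threshold.

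Some genes stand on more than 1 of the lists below, such as Cd5 and Cd28. Of 12 ligands and partners of the receptors 2 rose in both comparisons, Cd86, a ligand of CTLA-4 and CD28, at 2.66 in OB and 2.51 in non-OB grafts, and Cd48, the ligand of 2B4, at 1.98 and 1.55. Nectin3, which binds TIGIT, fell by 1.21 on the log2 scale in OB and by 1.12 in non-OB grafts. The median of the list in OB grafts was -0.04. Cd80, the other CTLA-4 ligand, had a change of 0.64 (adjusted p = 0.268 from limma), and the TIGIT ligand Pvr -0.30 (adjusted p = 0.375).

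Of 12 further inhibitory receptors 5 rose in OB grafts, those with the smallest adjusted p being Cd200r1 at 2.27, Lair1 at 2.45, Cd5 at 2.72 and Lilrb4a at 2.38, and 4 in non-OB grafts. The list had a median of 1.5 in OB grafts. Cd160, an inhibitory receptor of CD8 T cells and natural killer cells, was at background in sham lungs and at least 4.30-fold higher in OB grafts, with an adjusted p of 0.074 from limma that missed the threshold. Klrc1 was at background throughout.

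Of 10 costimulatory receptors 6 were called higher in OB and 5 in non-OB grafts, with a median of 1.74 in OB grafts. The smallest adjusted p belonged to Tnfrsf4 (OX40) at 3.39, Tnfrsf18 (GITR) at 2.82, Tnfrsf9 (4-1BB) at 3.65 and Icos at 3.47 in OB grafts, and their changes in non-OB grafts were 3.14, 2.54, 3.52 and 3.27. Icos, the gene next to Ctla4 on chromosome 1, was well above background in sham lungs, where Ctla4 was not. Of 7 costimulatory ligands 1 was called in OB grafts, Cd70, the ligand of CD27, and 2 in non-OB grafts, Cd70 and Tnfsf18, the ligand of GITR. Cd70 was at background in sham lungs and at least 5.66-fold higher in OB and 4.32-fold higher in non-OB grafts. Tnfsf18 was dim, well above background on 1 OB array, 2 non-OB arrays and no sham array.

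Regulatory T cells carry CTLA-4 constitutively and often TIGIT and CD39, and 7 of 10 of their marker genes rose in OB and 7 in non-OB grafts, with medians of 2.25 and 2.02. Foxp3, their defining factor, read 8.01, 8.46 and 8.32 in OB grafts, 7.77, 7.96 and 8.29 in non-OB grafts and 4.79, 5.30 and 5.0 in sham lungs. It rose by 3.23 (SE 0.23, adjusted p = 0.0010 from limma) in OB and by 2.98 in non-OB grafts. Tnfrsf18, Itgae and Il2ra rose by 2.82, 2.43 and 2.25 in OB grafts. The part of regulatory T cells in the Ctla4 and Tigit values was not tested.

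The transcription factors linked to exhaustion and memory did not move together. Of 20 factors 4 rose in OB grafts, Nfatc2 at 1.78, Ikzf2 at 1.66, Batf at 1.58 and Tbx21 at 1.44, and 1 fell, Nr4a1, by 1.69 on the log2 scale. In non-OB grafts only Nfatc2 was called, at 1.58. Eomes had a change of 1.72 in OB grafts (adjusted p = 0.0687 from limma) and Tcf7, which marks the progenitors of exhausted cells, 0.45 (adjusted p = 0.415). Tox2, a relative of Tox, had a change of -0.24 (adjusted p = 0.777).

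Of 9 other genes of the adenosine pathway 1 rose in OB grafts, Enpp1 at 1.33, and 1 fell, Entpd3, by 2.08 on the log2 scale. Nt5e, which encodes CD73 and acts after CD39, had a change of -0.45 (adjusted p = 0.363 from limma). The median of the list was 0.07.

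Interferon gamma is a known inducer of PD-L1, and of 18 genes of its response 13 rose in OB and 11 in non-OB grafts, with medians of 1.93 and 1.65. The most significant were Cxcl9 at 9.0, Cxcl10 at 5.68, Gbp5 at 3.02 and Psmb9 at 1.77. Ifng itself rose by 3.34 in OB grafts. Of the 3 genes whose log2 values over the 9 arrays were most like those of Cd274, out of 16189 genes well above background in a group, all 3 are interferon-induced, Igtp, Psmb8 and Irgm2, with Pearson correlations of 0.998, 0.997 and 0.997. The 9 arrays share the step from sham to graft, which sets most of these correlations. The part of interferon gamma in the Cd274 values was not tested.

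By the same measure the nearest genes were Tigit, Lag3 and Havcr2 for Pdcd1 (0.994, 0.993 and 0.992), Slamf7, Cyp7b1 and Jaml for Pdcd1lg2, Tnfrsf9, Gbp2b and AA467197 for Ctla4, and Ctsc, Pdcd1 and Car13 for Lag3. For Havcr2 they were Tigit, Gpr65 and Gatm, for Tigit they were Slamf7, Gpr65 and Havcr2, and for Tox they were AI413582, Cxcr6 and Ikzf3, with correlations between 0.991 and 0.996 for these 6 genes. Cd244a was nearest to Snhg7, Ogfrl1 and Cfap300 at 0.968 to 0.967. Entpd1 was nearest to 4930480E11Rik, Tat and Gdap2, at 0.949 to 0.915.

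Of 12 genes that signal below inhibitory receptors or belong to the SLAM family of 2B4, 6 rose in OB and 4 in non-OB grafts. The 4 with the smallest adjusted p were SLAM receptors, Slamf7 at 2.98, Cd84 at 1.79, Ly9 at 2.20 and Slamf6 at 1.77 in OB grafts. Cd244a lies beside Ly9, Slamf7 and Cd48 on chromosome 1, all of which were called higher where it was not. The phosphatases that PD-1 recruits, Ptpn6 and Ptpn11, had changes of 1.30 (adjusted p = 0.0628 from limma) and -0.46 (adjusted p = 0.172).

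**Figure D4:**
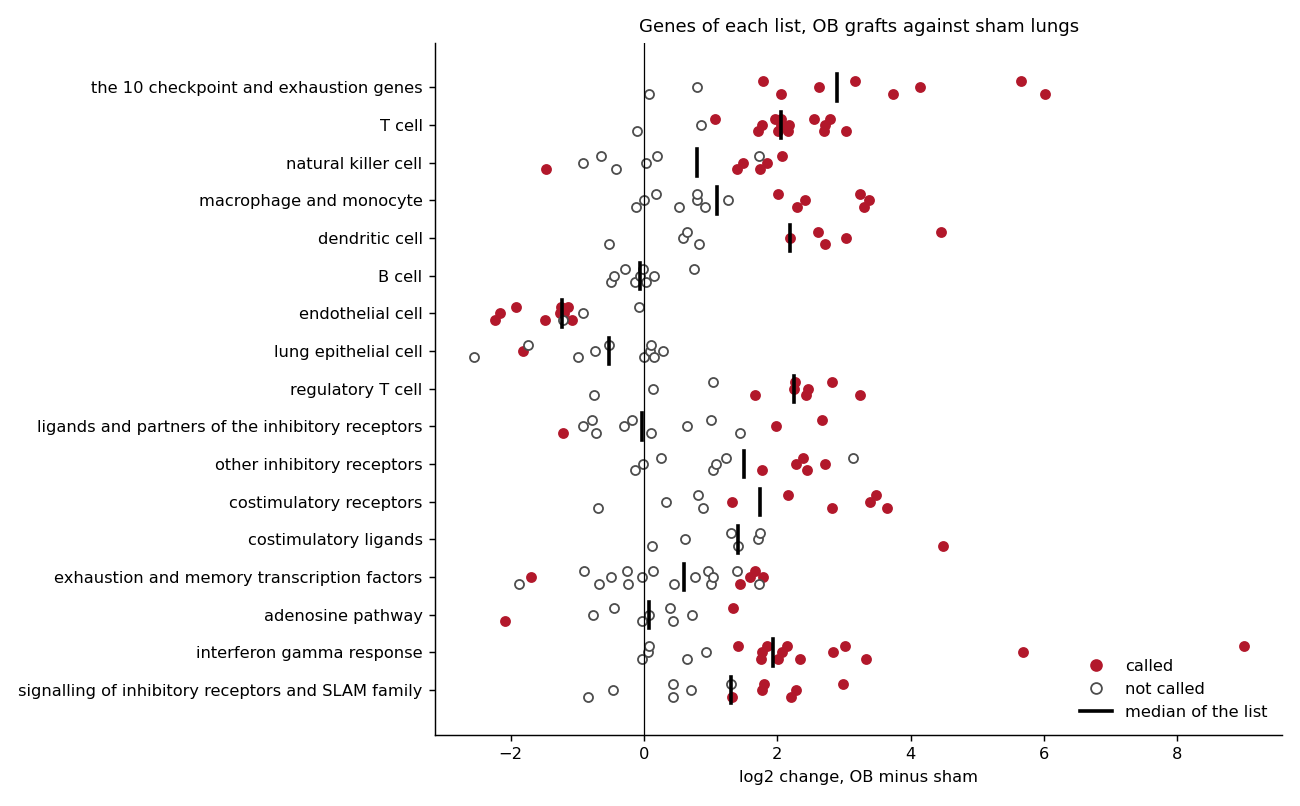
Log2 change in OB grafts against sham lungs for the 10 checkpoint and exhaustion genes and for each gene of 16 lists, 1 list per line. Red points were called, the others were not, and bars are medians. The 10 genes have a median of 2.90, and the lists range from -1.22 for endothelial markers to 2.25 for regulatory T-cell markers.

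Cells other than T cells also carry some of these genes, and their markers moved too. Of 14 macrophage and monocyte markers 6 rose in OB grafts (median 1.09), C1qb with the smallest adjusted p at 3.38, and none fell. Of 9 dendritic cell markers 5 rose (median 2.20), with Xcr1 at background in sham lungs and at least 7.18-fold higher. Of 12 natural killer cell markers 5 rose and 1, Gzma, fell, while the defining Ncr1 had a change of -0.92 (adjusted p = 0.309 from limma). None of 9 B-cell markers was called (median -0.05), 9 of 12 endothelial markers fell (median -1.22), and 1 of 11 measured lung epithelial markers fell. The mean over the macrophage markers was 12.64 to 12.72 on OB arrays, 12.12 to 12.45 on non-OB arrays and 10.89 to 11.41 on sham arrays. The part of macrophages and dendritic cells in the Cd274, Pdcd1lg2 and Havcr2 values was not tested.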

How the data were processed

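Whole-lung RNA of 9 mice (3 with an OB graft, 3 with a non-OB graft, 3 sham-operated) was labelled with Cy3 and hybridised by the authors to Agilent 8x60K mouse arrays, 1 array per lung. The authors deposited the processed signal intensity of each spot, background-subtracted and detrended by Agilent Feature Extraction 12.0.3.1, with spot flags, median spot and background intensities, and a table of intensities scaled to a 2% trimmed mean of 2500. The deposited flags, which are of another kind than intensity, marked outlier and control spots.

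The processed signal was scaled in the same way here, which gave the authors' table within rounding, outlier and control spots were left out, log2 values of repeated spots were averaged, and 56601 probes were tested. Probes were named through their accession from RefSeq (GRCm38.p6), which gave 32991 probes of 22909 genes. Each gene is given by the probe with the highest mean signal. Means of the 3 groups were fitted with limma 3.58.1 in R 4.3.3, and p-values were adjusted by Benjamini-Hochberg over all probes. A gene was called at an adjusted p under 0.05 and a 2-fold change against sham, and at an adjusted p under 0.05 between grafts. The precision is limited by 3 arrays a group. On simulated data with 200 changed probes of 56601, a log2 change of 2 was recovered in 45.5% (OB against sham), 44% (the non-OB and sham contrast) and 45% (between grafts). The simulation differs from the data. The fit of OB against sham called 1539 probes higher and 1376 lower, and the simulation applied the 2-fold rule between grafts too. Its percentages therefore do not give the recovery of the reported fits.

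The genes and lists were chosen with earlier results of these data known. In each list the examples are the called genes with the smallest adjusted p in OB against sham, and other genes of a list were named after their values were seen. For each of the 10 genes the 3 genes with the highest Pearson correlation are named. Alternatives were other scalings, background correction by normexp (offset 50) on the median spot signal, since mean spot signals were not used here, the methods' t-test, slide and replicate blocks, single arrays left out, and sham 1 as the only sham lung. Cd3e alone in place of the 4 CD3 genes was added after seeing the data. Lists in the supplementary files of the study hold the authors' own comparisons and none of their values was used, apart from the Tox name of 2 probes. Python 3.11.15 was used for tables and figures.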

Additional observations from a re-analysis of the deposited data

How the results depend on the processing

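The count of genes called against sham, 8 in both comparisons, changed under the following settings. With the slide as a fixed block it was 1 in OB and 0 in non-OB grafts, with sham 1 as the only sham lung 5 and 0, and with the methods' t-test after Benjamini-Hochberg 0 in non-OB grafts. Each of these 3 settings called 0 of 22909 named genes higher or lower in non-OB grafts. Normexp left 6 in non-OB grafts, without Ctla4 and Tigit. On the CD3 scale, with 5 genes called in both, normexp with quantile normalization left 1 and 1, and in non-OB grafts sham 1 alone left 0, beside 7 of all named genes higher, and the t-test after adjustment 0, beside 0. Sham 1 alone left 4 in OB grafts, without Ctla4. Pdcd1lg2 in non-OB grafts was lost on that scale with quantile normalization, the fixed slide block, trended robust eBayes, a fit of 2 groups, Cd3e alone, and without any one array other than non-OB 2. The methods' t-test without adjustment called 2 genes higher between grafts, Lag3 and Tox, beside 161 higher and 365 lower of 22909 named genes. Leaving out 1 array gave 8 to 8 genes in OB grafts, 7 to 8 in non-OB grafts, 5 to 5 and 3 to 5 on the CD3 scale, and 0 to 0 between grafts. The 3 to 5 stood beside 43 to 147 of 22909 named genes called higher. Replicate numbers did not pair the arrays, since correlations of same-numbered arrays ran from -0.40 to 0.28. With the replicate number as a block the counts were 8, 8, 5, 4 and 0, the 4 being non-OB grafts on the CD3 scale. Quantile normalization moved the median change over all probes in non-OB grafts from 0.13 to -0.02.

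Of all single-gene values 26 changed sign. Leaving out 1 array took Entpd1 from -0.061 (without OB 1) to 0.25 in OB grafts (-0.0598 without sham 2), from -0.16 to 0.14 (without sham 1) in non-OB grafts (0.023 without non-OB 2), and from -0.037 (without OB 1) to 0.23 between grafts. For Entpd1, sham 1 alone gave -0.26 in OB grafts, and in non-OB grafts 75th percentile scaling gave 0.0012, quantile normalization 0.073, normexp 0.075, and the slide as fixed and random block 0.15 and 0.063. For Cd274 on the CD3 scale in OB grafts, leaving out 1 array gave -0.12 (without sham 2) to 0.24 (-0.034 without OB 2), the fixed slide block -0.019, sham 1 alone -0.090 and Cd3e alone -0.27. Cd3e alone also gave -0.073 for Cd274 in non-OB grafts and -0.0066 for Havcr2 in OB grafts. Normexp on the CD3 scale gave -0.28 and -0.082 for Pdcd1lg2 and -0.60 and -0.36 for Ctla4 in OB and non-OB grafts. Between grafts, leaving out 1 array gave -0.017 (without non-OB 2) to 0.42 for Pdcd1lg2, -0.36 to 0.15 (without OB 1) for Cd244a (0.12 without non-OB 3), and -0.082 to 0.0054 (without non-OB 3) for Ctla4 on the CD3 scale. The cause was not tested.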
